A study of Mus musculus with 3 samples.

Results

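Autophagy and lysosome genes were examined in SOL muscle, taken here to mean the soleus of the hindlimb. Both genotypes were C57BL/6 males, 8 weeks old and kept on normal chow: KO mice carry a LacZ allele on both copies of Mettl21c (Mettl21cLacZ/LacZ), and wild-type (WT) mice carry none. The 35 genes were chosen by name and found through the RefSeq accession of each non-control probe, out of 36638 genes or unnamed transcripts on the array, and they fall into 20 genes of autophagosome formation and 15 genes of the lysosome. Each of the 3 arrays paired 1 KO sample in Cy5 (red) with 1 WT sample in Cy3 (green), and each sample was 1 of 3 biological replicates of its genotype. The dyes were not exchanged, so a probe's preference for one dye and the genotype cannot be told apart. Total RNA came from whole muscle, in which fewer cells of a type and less RNA per cell cannot be told apart. The labels give no cell type for the loss of Mettl21c, which encodes a lysine methyltransferase.

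Macroautophagy encloses cytoplasm in a double membrane, the autophagosome, which then fuses with the lysosome. The ULK1 kinase complex starts the process, the BECN1 and PIK3C3 lipid kinase marks the membrane, and the ATG5, ATG12 and ATG16L1 conjugate attaches LC3 and GABARAP proteins to it, where receptors such as SQSTM1 bind cargo. The lysosome is kept acid by a proton pump and degrades the cargo with cathepsins and glycosidases. In skeletal muscle this pathway clears damaged mitochondria and protein aggregates and breaks down glycogen, and many of its genes are targets of the transcription factor TFEB, which binds a DNA element with CACGTG at its core.

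That core was looked for in the 250 bases before and 50 bases after each gene's start, in a RefSeq table of build GRCm38.p6 that held 27 of the 35 genes. CACGTG reads the same on both strands. It was present for 7 of 13 lysosome genes (53.8%) and 3 of 14 autophagosome genes (21.4%), against 2187 of all 27025 genes in the table (8.09%). The longer GTCACGTG, searched on both strands and overlapping the same sites, was present for 4 of 13 lysosome genes (30.8%) and 2 of 14 autophagosome genes (14.3%), against 2.55% of all genes. Stretches around the core are shown for the tested lysosome genes that hold it and for Atg5, because the measured ratios are set beside this feature further on. Capitals mark CACGTG, and each is written 5′ to 3′ on the gene's strand.
Lamp1: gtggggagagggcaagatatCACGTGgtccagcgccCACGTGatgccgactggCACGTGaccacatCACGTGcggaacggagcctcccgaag
Mcoln1: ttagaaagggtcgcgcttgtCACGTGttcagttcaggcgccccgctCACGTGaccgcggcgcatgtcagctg
Ctsd: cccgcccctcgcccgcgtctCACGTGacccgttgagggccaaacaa
Ctsl: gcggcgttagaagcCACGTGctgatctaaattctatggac
Gaa: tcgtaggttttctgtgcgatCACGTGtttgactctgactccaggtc
Atp6v0d1: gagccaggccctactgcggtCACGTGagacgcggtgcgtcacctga
Atp6v1a: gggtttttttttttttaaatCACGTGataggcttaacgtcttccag
Atg5: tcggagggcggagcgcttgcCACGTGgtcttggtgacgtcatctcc
The Lamp1 stretch, at chr8:13159080-13159171 (+ strand), held 4 matches within 61 bases before the start. The Mcoln1 stretch, at chr8:3500428-3500499 (+ strand), held 2. Ctsd has a second match 245 bases before its start, and the one shown, 98 bases before it, lies at chr7:142387900-142387945 (- strand). The Ctsl stretch is at chr13:64370731-64370770 (- strand), the Gaa stretch at chr11:119267803-119267848 (+ strand), the Atp6v0d1 stretch at chr8:105566042-105566087 (- strand), the Atp6v1a stretch at chr16:44139365-44139410 (- strand) and the Atg5 stretch at chr10:44268305-44268350 (+ strand). Among lysosome genes outside this set, 6 tested genes (Lamp2, Ctsz, Tfeb, Hexa, Neu1 and Vps18) had no match in the windows of the table.

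For a probe to be tested, each of the 3 arrays had to give a value, and 1 of the channels had to stand well above background throughout. This left 22 of the 35 genes, 9 of 20 autophagosome genes and 13 of 15 lysosome genes. The share of spots standing well above background was 22.5% to 22.9% for KO and 20.4% to 23.6% for WT. In limma Mettl21c, the targeted gene, was lower in KO (adjusted p = 0.0175), and arrays 1 to 3 gave log2 ratios of KO over WT of -2.93, -1.96 and -2.46. Its 1 probe is not placed relative to the LacZ allele in the files. That probe passed the filter through WT alone (well above background on 3 arrays, KO on 1). Mettl21c did not pass in every alternative, as given further on. Muscle fibre markers such as Acta1 and Ckm were measured for 10 of 10 genes listed, and their summed processed signal ran from 240113 to 285585 in KO and from 225899 to 367048 in WT.

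Array 3 stands apart from the other arrays. The level of a spot, averaged over both channels, correlated across 59305 spots at 0.950 between arrays 1 and 2 but at 0.765 between array 3 and either of them. The array was divided into blocks of 32 rows and 20 columns, and array 3's levels were set against the other arrays' levels at the same position and at the neighbouring position to the upper left. A block was taken to follow the neighbour at a correlation of 0.1 or more. In 43 of 96 blocks array 3 followed its own position (correlations from 0.806 to 0.972) and not the neighbour (at most 0.0864). In the other 53 blocks, holding 53.9% of spots, it followed the neighbour at 0.116 to 0.855 and its own position at 0.122 to 0.916. Arrays 1 and 2 followed the neighbour in 0 blocks, with correlations of at most 0.0881. How much of a single spot's value in that area belongs to its own probe cannot be told from the files. Of the 47 probes of the 35 genes, 27 lie wholly in the area on array 3, as do the probes used for 8 of the 22 tested genes (Map1lc3a, Gabarap, Sqstm1, Atg5, Ulk1, Ctsz, Hexa and Atp6v0d1). The 10 spots of Map1lc3b lie partly in it and the probes used for the other 13 genes lie outside. Results are given over all 3 arrays. For tested genes whose probe lies in the area, for the calls and for the group medians they are also given without array 3 there, an alternative chosen after seeing the data. Leaving out the area also changed array 3 values of genes outside it.

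**Figure D1:**
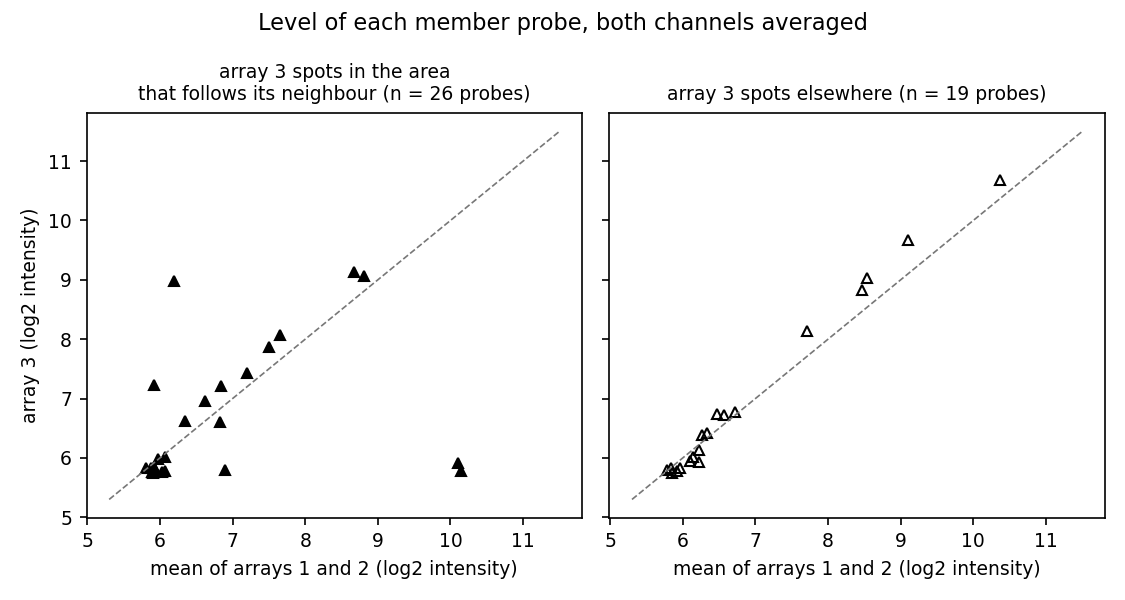
Level on array 3 (vertical axis, normalised log2 intensity, KO and WT averaged) against the mean level on arrays 1 and 2 (horizontal axis, same unit) for each probe of the autophagy and lysosome genes, with the dashed line marking equal levels. Of the 26 probes in the area with a value on array 3, 5 lie over 1 log2 unit from the mean of the other arrays, against 0 of the 19 probes elsewhere.

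The 5 probes that array 3 lists over 1 log2 unit away from the other arrays belong to Gabarapl1, Gabarap, Gabarapl2, Nbr1 and Atg5. Gabarapl1, a GABARAP family member, stood at 10.26, 10.13 and 5.76 log2 units in KO on arrays 1 to 3, against 10.32, 9.88 and 5.81 in WT. Atg5, which joins ATG12 in the conjugation machinery, stood at 6.15, 6.28 and 9.002 in KO, against 6.10, 6.25 and 8.96 in WT. For each of the 5 probes KO and WT were displaced together on array 3. Over all probes 6.02% in the area and 0.689% elsewhere differed by this much.

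None of the 22 tested genes differed between KO and WT at an adjusted p of 0.05 in limma, where 3 of 7424 genes did (0.0404%, all lower in KO). At an unadjusted p under 0.05 there were 4 (18.2%), Sqstm1, Map1lc3a and Gabarap with KO lower and Atp6v1a with KO higher, against 13.4% of all genes tested, 7.53% lower and 5.90% higher. The mean log2 ratio was negative for 13 genes and positive for 9, and its median was -0.052, against -0.0027 for all genes tested. Of the 22, 19 (86.4%) had an absolute mean under 0.2, the same share as among all genes tested (86.4%). The 95% interval of the mean lay within ±0.5 for 19 genes and within ±1 for 22. A ratio had one sign on all 3 arrays for 11 of the 22 genes, 7 negative and 4 positive, against 35.8% of all genes, 18.3% negative and 17.5% positive. These counts include Tfeb (positive mean) and Vps18 (negative on each array), which passed the filter through 1 channel alone. Without them the median was -0.052. With array 3 left out in the area, 27 of the 35 genes could be tested and 0 passed in limma, against 1.11% of 8916 genes. An unadjusted p under 0.05 was found for 4 of the 27 (14.8%), against 15.2% of all genes. These were Sqstm1 at -0.24 and Ctsl at -0.18, with KO lower, and Lamp2 and Atp6v1a, both at 0.26, with KO higher.

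**Figure D2:**
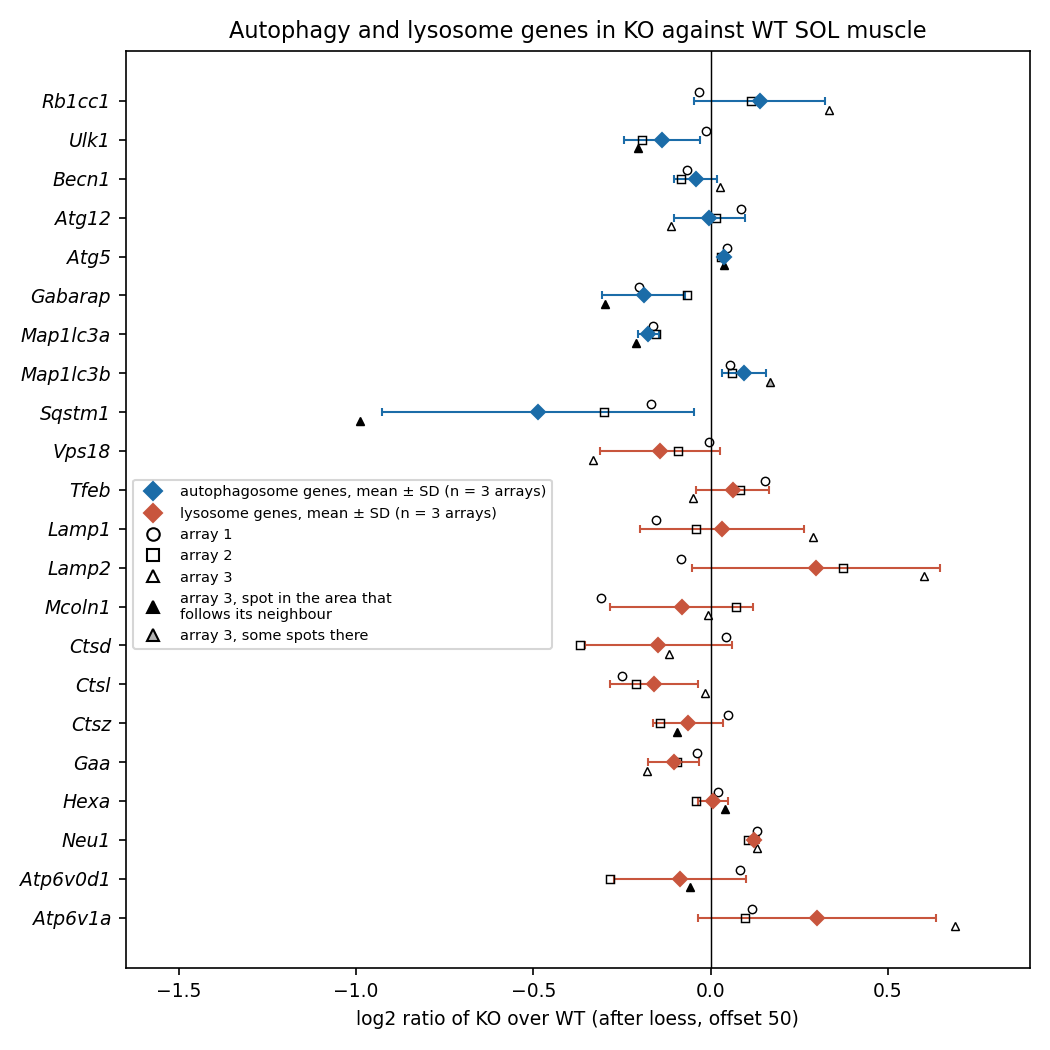
Log2 ratio of KO over WT (horizontal axis) of the 22 tested genes, with the mean and SD over 3 arrays as diamonds and bars and each array as an open symbol. Filled triangles are array 3 values in the area that follows its neighbour. The lowest mean is that of Sqstm1 at -0.49, which rests on array 3 at -0.99, and 19 of 22 means lie within 0.2 of 0.

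Among the initiation genes, Ulk1, the kinase that starts autophagosome formation, had a log2 ratio of -0.14 (SD 0.11, n = 3), with -0.012, -0.19 and -0.20 on arrays 1 to 3. Its array 3 spot lies in the area, and without that spot the mean was -0.10 (SD 0.13, n = 2 arrays). Rb1cc1, a scaffold of the same complex, stood at 0.14 (SD 0.18) with its brighter probe and at -0.012 (SD 0.017) with its other tested probe, so its probes gave different values. The brighter probe gave 0.33 on array 3, outside the area, and its mean was 0.040 without that array. The array 3 spot of the other Rb1cc1 probe lies in the area. Becn1, of the lipid kinase complex, stood at -0.042 (SD 0.060). In the conjugation machinery Atg5 stood at 0.038 (SD 0.0094) and Atg12 at -0.0041 (SD 0.10). Without its displaced array 3 spot Atg5 stood at 0.038 (SD 0.013, n = 2 arrays). Over all 3 arrays the adjusted p of these 5 genes ran from 0.488 to 0.989 in limma. No mean of this group was past the threshold.

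The LC3 and GABARAP family, the proteins attached to the autophagosome membrane, gave 3 tested genes out of 5. Map1lc3a (LC3A) had normalised log2 intensities of 7.14, 7.11 and 7.33 in KO on arrays 1 to 3, against 7.30, 7.26 and 7.54 in WT. KO was lower than WT on every array, but the groups overlapped because array 3 was higher in both channels. Its mean log2 ratio was -0.18 (SD 0.030, n = 3, limma adjusted p = 0.316), and -0.16 on arrays 1 and 2 alone (limma adjusted p = 0.408). Gabarap, the founding member of its subfamily, had 8.54, 8.66 and 8.98 in KO, against 8.74, 8.72 and 9.28 in WT. KO was again lower within each array and the groups overlapped, with a mean log2 ratio of -0.19 (SD 0.12, n = 3, limma adjusted p = 0.342).

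The second Gabarap probe did not show that difference. It stood at 9.97 and 10.22 in KO on arrays 1 and 2, against 10.07 and 10.16 in WT, and array 3 listed it at 5.93 in KO and 5.90 in WT. With array 3 left out in the area this second probe was the brighter one and represented Gabarap, at -0.022 (SD 0.11, n = 2 arrays, limma adjusted p = 0.940).

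Map1lc3b (LC3B), the paralog most used as an autophagosome marker, had 10.52, 10.85 and 11.10 in KO, against 10.47, 10.79 and 10.93 in WT. KO was slightly the higher within each array and the groups overlapped. Its 10 spots per array let the error within an array be seen, with an SD between spots of 0.073, 0.074 and 0.098 on the log2 scale over the 8, 10 and 6 spots used. This is the spread of single spots and does not measure variation between biological replicates. The mean log2 ratio was 0.094 (SD 0.063, n = 3, limma adjusted p = 0.614). It became 0.038 with array 3 left out in the area, and it was negative under 5 other ways of scaling or fitting the data, among them -0.027 with no background subtraction and -0.085 with the scanner's processed signals.

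Gabarapl1 and Gabarapl2 were not tested because array 3 lists both near background. On arrays 1 and 2 the log2 ratios of Gabarapl1 were -0.062 and 0.25, with opposite signs. Those of Gabarapl2 were -0.23 and -0.12, both negative, and its mean without array 3 was -0.17 (SD 0.077, n = 2 arrays, limma adjusted p = 0.388).

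Sqstm1 (p62), the receptor that carries ubiquitinated cargo to the autophagosome and is itself degraded there, had the lowest ratio of the 22 genes. Its normalised log2 intensities were 7.67, 7.10 and 7.37 in KO on arrays 1 to 3, against 7.83, 7.40 and 8.36 in WT. KO was lower on each array, most on array 3, and the groups overlapped between 7.40 and 7.67. The mean log2 ratio was -0.49 (SD 0.44, n = 3, 95% interval from -0.85 to -0.12, limma adjusted p = 0.260), or 0.714 of the WT level on the offset scale. Array 3, at -0.99, decided the size. Its spot lies in a block that followed its own position at 0.766 and the neighbour at 0.367, and on arrays 1 and 2, at -0.17 and -0.30, the mean was -0.24 (SD 0.094, limma adjusted p = 0.240). Nbr1, the other cargo receptor, was well above background on 1 array in each channel and was not tested. It stood at 5.85, 5.88 and 7.14 in KO, against 5.98, 5.96 and 7.31 in WT, and its array 3 spot also lies in the area.

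**Figure D3:**
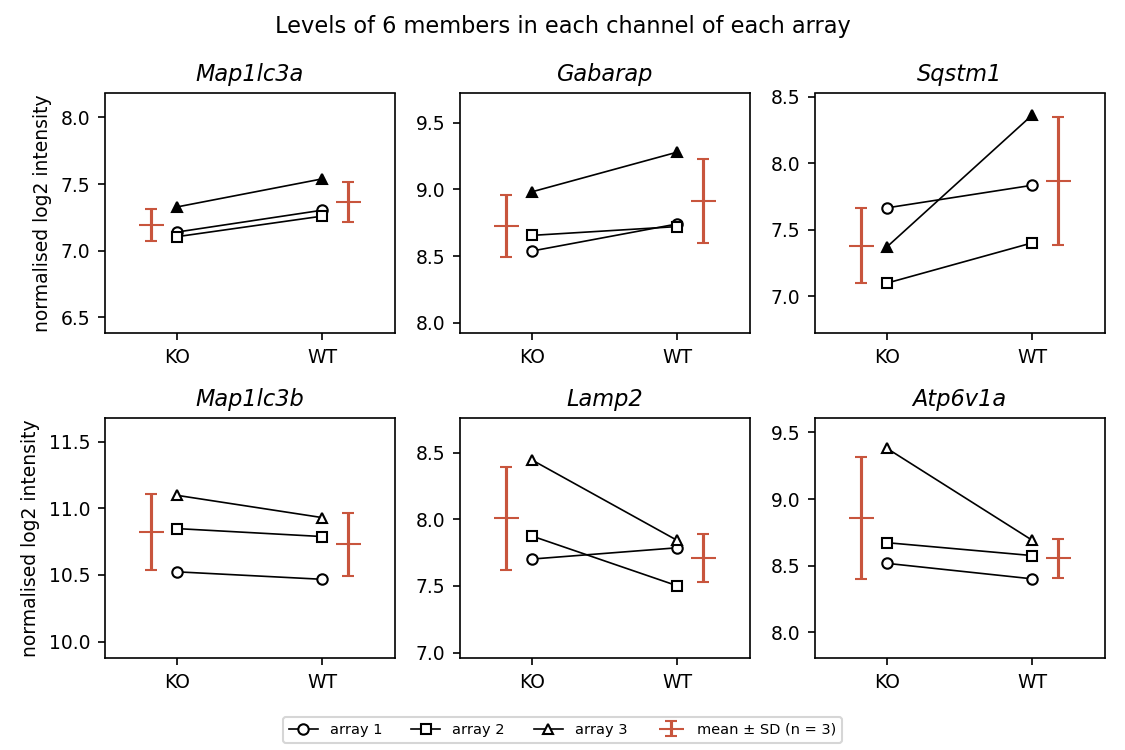
Normalised log2 intensity (vertical axis) of 6 genes in KO and WT, with lines joining the channels of one array and red marks giving mean and SD over 3 arrays. Filled triangles are array 3 spots in the area that follows its neighbour. KO lay lower within each array for Map1lc3a, Gabarap and Sqstm1, and the KO and WT ranges overlapped in all 6 panels.

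Of the lysosomal membrane proteins, Lamp1 and Lamp2, the abundant glycoproteins that line the lysosome, gave no common direction. Lamp2, whose loss causes a vacuolar myopathy (Danon disease), had 7.70, 7.87 and 8.44 in KO, against 7.79, 7.501 and 7.84 in WT. KO was lower on array 1 and higher on arrays 2 and 3, and the groups overlapped. The mean log2 ratio was 0.30 (SD 0.35, n = 3, limma adjusted p = 0.383) with this probe. It turned to -0.36 with centring over all spots, a setting that put the median of all genes at -0.45. The other tested probe, whose array 3 spot lies in the area, stood at -0.11 (SD 0.21). The probes of Lamp2 therefore disagree in sign, and the files do not say which of the known isoforms each covers.

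Lamp1 had 9.03, 9.07 and 9.82 in KO, against 9.18, 9.11 and 9.53 in WT. Its log2 ratios of -0.15, -0.041 and 0.29 changed sign between arrays, and the mean of 0.031 (SD 0.23, n = 3, limma adjusted p = 0.927) became -0.098 without array 3. Mcoln1, a calcium channel of the lysosomal membrane, stood at -0.082 (SD 0.20, limma adjusted p = 0.764) and was at -0.31 on array 1 alone, against 0.070 and -0.0064 on arrays 2 and 3.

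The tested cathepsins, which are lysosomal proteases, all had negative means. Ctsl (cathepsin L), known to be induced in wasting muscle, had 6.54, 6.66 and 6.77 in KO, against 6.79, 6.87 and 6.79 in WT. It is the 1 gene of the 22 (4.55%) whose KO and WT values did not overlap, against 6.94% of all genes tested. Its mean log2 ratio was -0.16 (SD 0.12, n = 3, limma adjusted p = 0.427), with -0.25, -0.21 and -0.017 on arrays 1 to 3. As scaled here, array 3 showed almost none of the difference. The Ctsl spot on array 3 lies outside the area, but its value moved when the area was left out. The mean was then -0.18 (SD 0.083, n = 3).

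Ctsd (cathepsin D) had 10.44, 10.13 and 10.63 in KO, against 10.39, 10.50 and 10.75 in WT. The groups overlapped and KO was lower on arrays 2 and 3, with a mean log2 ratio of -0.15 (SD 0.21, n = 3, limma adjusted p = 0.553) and of -0.13 (SD 0.081) with its dimmer probe. That dimmer probe averaged 6.05 log2 units and passed the filter through WT alone (well above background on 3 arrays, KO on 1). Its array 3 spot lies in the area. Ctsz stood at -0.063 (SD 0.099), and at -0.047 (SD 0.13, n = 2 arrays) without its array 3 spot, which lies in the area. Ctsb (cathepsin B) was not tested because its array 3 spot carries an outlier flag, and it stood at 0.064 and 0.14 on arrays 1 and 2.

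The means of the 3 tested glycosidases lay between -0.10 and 0.12. Gaa, the enzyme that degrades glycogen in the lysosome and is deficient in Pompe disease, stood at -0.10 (SD 0.072, n = 3, limma adjusted p = 0.575), negative on every array. Neu1, a sialidase, stood at 0.12 (SD 0.015, limma adjusted p = 0.481), with 0.13, 0.11 and 0.13 on the 3 arrays. Hexa, a subunit of beta-hexosaminidase, stood at 0.0073 (SD 0.042).

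Atp6v1a, the catalytic subunit of the proton pump, had 8.52, 8.67 and 9.38 in KO, against 8.40, 8.58 and 8.69 in WT. KO was higher on each array and the groups overlapped between 8.52 and 8.69. The mean log2 ratio was 0.30 (SD 0.34, n = 3, limma adjusted p = 0.365), of which array 3 gave 0.69 and arrays 1 and 2 gave 0.12 and 0.097, so that it was 0.11 without array 3. Its array 3 spot lies outside the area. The sign turned with centring over all spots, at -0.48, and with centring on the tested probes, at -0.044. Those settings put the median of all genes at -0.45 and -0.012. Its other probe was never well above background. Atp6v0d1, of the membrane sector of the pump, stood at -0.087 (SD 0.19, limma adjusted p = 0.734). Without its array 3 spot, which lies in the area, Atp6v0d1 stood at -0.10 (SD 0.26, n = 2 arrays).

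Tfeb itself, the transcription factor, had 6.12, 6.20 and 5.92 in KO, against 5.96, 6.12 and 5.97 in WT. KO was higher on arrays 1 and 2 and lower on array 3, and the mean log2 ratio was 0.062 (SD 0.10, n = 3, limma adjusted p = 0.774). Vps18, a subunit shared by the complexes that tether vesicles to the lysosome, stood at -0.14 (SD 0.17, limma adjusted p = 0.528) and its other probe at 0.024 (SD 0.088), not tested. Tfeb passed the filter through KO alone (well above background on 3 arrays, WT on 2) and Vps18 through WT alone (3 arrays, KO on 2). Each mean has the sign of the channel that let the gene pass, so neither is read as a difference. With both channels required they fell out, leaving 20 genes. Both are among the 6 tested lysosome genes without CACGTG. Set beside the promoter stretches shown earlier, the 7 tested lysosome genes with CACGTG had a median log2 ratio of -0.087 (from -0.16 to 0.30, 5 negative) and the 6 without it 0.035 (from -0.14 to 0.30, 2 negative). Vps18 sets the -0.14 end of the second range and is 1 of its 2 negatives. With Vps18 and Tfeb left out that range runs from -0.063 (Ctsz) to 0.30 (Lamp2). It then lies within the range of the genes with CACGTG. The difference between these sets was not tested. Of the tested autophagosome genes with a promoter window, Atg5 was the 1 with CACGTG and stood at 0.038. The 4 without it had a median of -0.16 (from -0.49 to 0.094, 3 negative).

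Beside Ctsb and the GABARAP paralogs, 10 further genes were not tested because neither channel stood well above background throughout: Nbr1, Atg3, Atg4b, Atg7, Atg13, Atg16l1, Ulk2, Pik3c3, Wipi1 and Atp6v1h. Their probes gave mean log2 ratios from -0.13 (Nbr1) to 0.042 (Ulk2), and of those with 2 probes Atg7 had -0.010 and -0.0067, Pik3c3 -0.049 and -0.047, Ulk2 0.022 and 0.042, and Wipi1 -0.0065 and 0.024. Atg4b, the protease that primes LC3, Ulk2, Wipi1 and Atp6v1h were well above background on 0 arrays in either channel. Atg7 and Pik3c3, the activating enzyme of both conjugation systems and the lipid kinase, each had a probe that failed only on array 3, in the area. They came in with array 3 left out there, at -0.060 and -0.032 (n = 2 arrays, limma adjusted p = 0.799 and 0.911). For these genes no difference was detectable at this signal, which does not show that there was none.

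**Figure D4:**
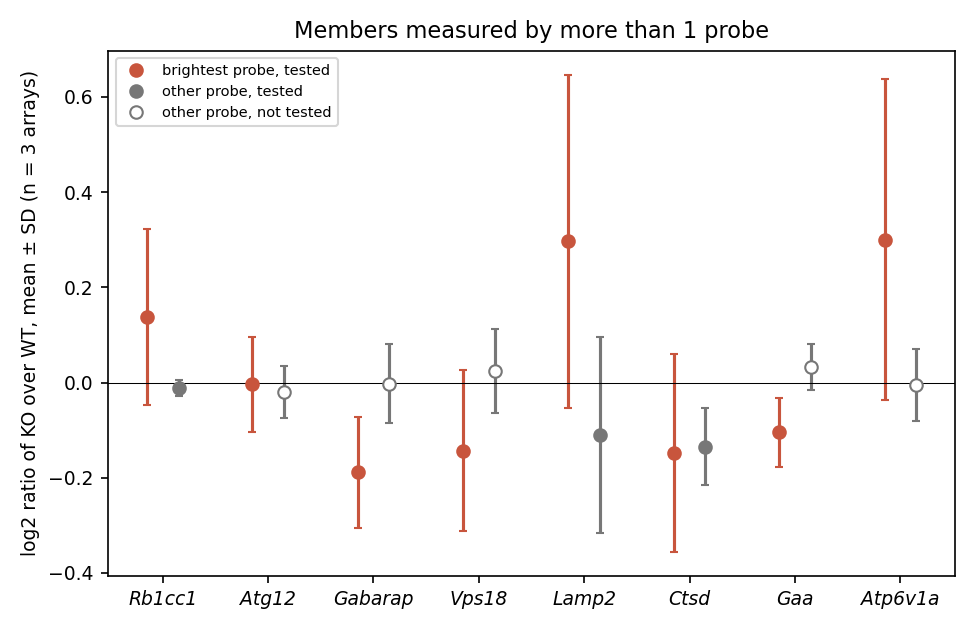
Mean log2 ratio of KO over WT (vertical axis) with its SD over 3 arrays for the tested genes that have more than 1 probe, the brightest probe in red and the other in grey, filled where tested. The probes of Lamp2 stood at 0.30 and -0.11 and those of Gabarap at -0.19 and -0.0022, while those of Ctsd stood at -0.15 and -0.13. The dimmer Ctsd probe passed the filter through WT alone.

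Of the 35 genes, 12 have more than 1 probe. Among the 8 tested genes of this kind, the other probe was itself tested for Rb1cc1, Lamp2 and Ctsd. It had the sign of the brightest probe for Ctsd but not for Rb1cc1 or Lamp2. The other Ctsd probe was dim and passed the filter through WT alone. For Gaa, Atp6v1a, Vps18 and Atg12 the other probe lay near background, and its mean was between -0.019 and 0.032.

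The autophagosome genes were then set against the lysosome genes on each array. The median log2 ratio of the 9 tested autophagosome genes was -0.033, -0.066 and -0.11 on arrays 1 to 3. That of the 13 tested lysosome genes was 0.020, -0.041 and -0.017, against -0.012, -0.017 and 0.023 for all genes tested. The autophagosome median lay under that of all genes on every array, and the lysosome median on arrays 2 and 3. On array 3 the area holds the autophagosome genes Map1lc3a, Gabarap, Sqstm1, Atg5 and Ulk1. Of the lysosome genes it holds Ctsz, Hexa and Atp6v0d1, so it weighs more on the autophagosome median. Over the mean of the arrays the medians were -0.042 and -0.063, and the SD of the array medians was 0.040 and 0.031. Over all probes, dim ones included, the autophagosome medians were -0.033, -0.0099 and 0.0058 (27 probes) and the lysosome medians -0.021, -0.040 and 0.027 (20, 20 and 19 probes with a value), against -0.0040, -0.0021 and -0.0020 for all probes. With array 3 left out in the area the medians were -0.032 for 13 autophagosome genes and -0.030 for 14 lysosome genes, against -0.0042 for all genes tested. Then 9 of the 13 and 4 of the 14 rested on arrays 1 and 2 alone. The difference between the groups was not tested.

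**Figure D5:**
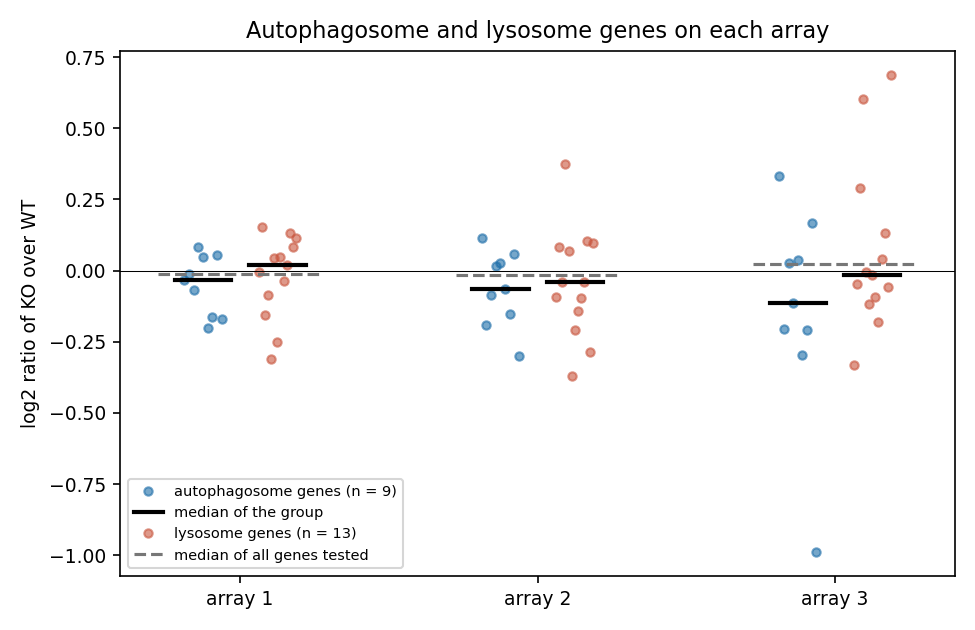
Log2 ratio of KO over WT (vertical axis) of each tested gene on each array, with autophagosome genes in blue (n = 9) and lysosome genes in red (n = 13), black bars for group medians and dashed lines for the median of all genes tested. The group medians lie between -0.11 and 0.020 while single genes run from -0.99 to 0.69.

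A wider list of 118 other genes of the pathway gave 61 tested genes, and 0 passed the adjusted p of 0.05 in limma. At an unadjusted p under 0.05 there were 13 (21.3%), 5 with KO higher and 8 with KO lower, against 13.4% of all genes tested. The median log2 ratio of the 61 was -0.048, with 41 negative. Among them Wipi2, Epg5, Atp6v1c1, Manba and Ctsk passed the filter through KO alone, and Atg2a and Grn through WT alone. Bnip3, a receptor that links mitochondria to LC3, stood at 0.55, 0.84 and 0.72 on arrays 1 to 3 (mean 0.70, SD 0.15, limma adjusted p = 0.0587). The mean over all its tested probes was 0.39 (limma adjusted p = 0.107), so not all of them gave 0.70. For the brightest probe the array 3 spot lies outside the area. With array 3 left out there for other genes Bnip3 stood at 0.64 (limma adjusted p = 0.0272). It stood at 0.28 with no background subtraction, 0.10 with the scanner's processed signals and 0.050 with the 6 channels as separate samples. The sign turned with centring over all spots, at -0.68 (limma adjusted p = 0.00169), and with centring on the tested probes, at -0.24. Sgsh, a lysosomal sulfatase that degrades heparan sulfate, stood at 0.53 (SD 0.17, limma adjusted p = 0.0883), and at 0.48 (limma adjusted p = 0.0299) with array 3 left out in the area. It turned to -0.51 (limma adjusted p = 0.0112) and -0.073 under the same centrings. Lamtor4 and Lamtor1, subunits of the Ragulator complex that anchors nutrient signalling to the lysosome, stood at 0.22 (SD 0.034) and 0.19 (SD 0.023), with KO above WT on each array. Under those centrings they turned as well, Lamtor4 to -0.81 and -0.37 (limma adjusted p = 0.000851 and 0.0200) and Lamtor1 to -0.75 and -0.31 (limma adjusted p = 0.00105 and 0.0274). Centring over all spots put the median of all genes at -0.45.

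With KO lower, Ctsf, another cathepsin, stood at -0.31 (SD 0.15, limma adjusted p = 0.179). Atg101, a subunit of the ULK1 complex, stood at -0.27 (SD 0.018, limma adjusted p = 0.159) and Tax1bp1, a cargo receptor, at -0.34 (SD 0.22, limma adjusted p = 0.198). Vps39, of the tethering complex, stood at -0.27 (SD 0.11, limma adjusted p = 0.198) and Vps41 of the same complex at -0.15. Among the other pump subunits Atp6v1e1 and Atp6v1f stood at -0.16 and -0.14, and Atp6v1g1 and Atp6v0e at 0.20 and 0.15. Vmp1 and Manba, at 0.10 and 0.078, were the remaining genes with KO higher that the rule for naming took. Manba passed the filter through KO alone (well above background on 3 arrays, WT on 2), so its mean is not read as a difference. Atp6v1g1, Atp6v0e, Vmp1 and Manba were negative with centring over all spots, and Vmp1, Atp6v1g1 and Atp6v0e also with centring on the tested probes. Without array 3, on the same genes, Tax1bp1 stood at -0.47 (limma adjusted p = 0.0224), Bnip3 at 0.70 (limma adjusted p = 0.00829) and Sgsh at 0.43 (limma adjusted p = 0.0304), and with the filter rerun on arrays 1 and 2 none of the 3 passed.

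Lysosomes are plentiful in macrophages, so their markers were read beside the lysosome genes. Of 14 macrophage markers 7 were tested and all 7 had negative means, with a median of -0.23 that was -0.24, -0.22 and 0.063 on arrays 1 to 3. The summed processed signal of the list ran from 7379 to 14512 in KO and from 8276 to 21173 in WT. Aif1, Cd163, Lyz2 and Ptprc were not well above background on any array. The part of these cells in the cathepsin ratios was not tested.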

How the data were processed

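Total RNA of SOL muscle was hybridised on 3 arrays with 2 colours, KO in Cy5 and WT in Cy3, per the labels. The deposited scanner files hold the intensity of each spot in both channels, its local background and flags, and per the file headers they come from Feature Extraction, version 12.0.3.1 (11.5 in the submitters' processing notes). Median spot intensities were corrected with normexp and an offset of 50, which shrinks the ratios of dim probes, followed by loess per array (limma 3.58.1 in R 4.3.3, files read by the data.table package 1.17.8). Outlier-flagged spots, of which arrays 1 to 3 held 536, 572 and 1002, and control spots got weight 0, and 0 spots were saturated. Spots of a probe were averaged, 8391 of 55681 probes were tested, and the brightest tested probe represented a gene. Names came from a RefSeq table of GRCm38.p6. Means were tested against 0 with limma's eBayes, two-sided, with Benjamini-Hochberg adjustment over 7424 genes at 0.05. The number of arrays limits the precision.

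All 35 genes are accounted for. Values on every array are given for genes with an unadjusted p under 0.05 or an absolute mean of at least 0.3 and for a set of genes taken whatever their values. Of each other pathway list the genes of smallest p in each direction are named, except 1 that is not reported here. The genes and lists were chosen with earlier results of these data known. Alternatives changed the background correction, scaling, filter, probe rule, moderation, weights, pairing and arrays used. Those on array 3 by area, and on arrays 1 and 2 with the filter rerun, were chosen after seeing the data. The deposited series matrix was not used here.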

Additional observations from a re-analysis of the deposited data

How the results depend on the processing

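The 22 genes held 0 calls under 15 of 17 alternatives. The exceptions fitted no loess: centring over all spots gave 17 calls, 49 among the other pathway genes and a median of all genes of -0.45, and centring on the tested probes gave 11 and 23. In some of the 15 the targeted gene Mettl21c did not pass either. Its limma adjusted p was 0.07075 with processed signals, 0.1725 with no filter on dim probes and 0.9948 with 6 channels. It was 0.05568 on arrays 1 and 2 with the filter rerun. With both channels required Mettl21c was not tested. The 0 calls there do not show that the 22 genes were unchanged. The other pathway genes held 3 calls with robust, trended moderation, 2 with array weights, 2 with array 3 left out in the area, and 0 to 3 with 1 array left out. Over all genes, calls lower and higher in KO numbered 22 and 3 with an offset of 16, 5 and 0 without background subtraction, 0 and 0 with processed signals, 4917 and 0 with centring over all spots, 1644 and 1014 with centring on the tested probes, 44 and 41 with robust moderation, 17 and 45 with array weights, and 40 and 59 with array 3 left out in the area. Lower calls numbered 0 with both channels required, 0 with no filter on dim probes, 1 with outlier spots kept and 1 with the mean over probes. Without 1 array, lower calls ran from 0 to 71 and higher calls from 0 to 87, the largest numbers (71 and 87) being those without array 3 on the same genes, while 0 and 0 came from those 2 arrays with the filter rerun.

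Group medians moved too. The median of the 22 genes was -0.087 with processed signals, -0.48 with centring over all spots, -0.014 with no filter and -0.027 with 6 channels, and -0.057 to -0.017 without 1 array. The autophagosome median was -0.16, -0.73 and -0.29 with processed signals and the 2 centrings. The lysosome median was -0.013 with processed signals, -0.48 with centring over all spots, -0.029 with outlier spots kept, 0.0040 with 6 channels, -0.030 with array 3 left out in the area, and -0.049 to 0.012 without 1 array.

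Single log2 ratios changed sign as follows. No background subtraction gave Map1lc3b -0.0270, Atg5 -0.0190, Atg12 0.0421 and Hexa -0.0157. Processed signals gave Map1lc3b -0.0853, Atg5 -0.202, Atg12 0.0410, Hexa -0.0893 and Atp6v0d1 0.0826. Centring over all spots gave Map1lc3b -0.948, Atg5 -0.338, Rb1cc1 -0.236, Lamp1 -0.825, Lamp2 -0.363, Tfeb -0.0951, Hexa -0.393, Neu1 -0.119 and Atp6v1a -0.483. Centring on the tested probes gave Map1lc3b -0.509, Becn1 0.127, Atg12 0.263, Lamp1 -0.386, Atp6v1a -0.0436 and Vps18 0.0956. Array weights gave Atg12 0.0165, Lamp1 -0.0204 and Hexa -0.0041. Leaving out array 3 in the area gave Lamp1 -0.0122 and Hexa -0.0100. Without array 1 Mcoln1 0.0319, without array 2 Atp6v0d1 0.0121 and without array 3 Atg12 0.0503, Lamp1 -0.0976 and Hexa -0.0100 turned, the last 3 also with the filter rerun. Over the arrays left out Atg12 ran from -0.048 to 0.050, Lamp1 from -0.098 to 0.12, Hexa from -0.0100 to 0.031, Atp6v0d1 from -0.17 to 0.012 and Mcoln1 from -0.16 to 0.032. The cause was not tested. No paired analysis was possible beyond the ratios themselves because each array already pairs 1 KO with 1 WT sample. The 6 channels fitted as separate samples with no replicate block gave 0 calls among these genes and 0 over all 7424 genes, Mettl21c included. In that fit Map1lc3b at -0.0668 and Atp6v0d1 at 0.0040 turned.

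Limits are the 3 arrays, the fixed dyes, the dim signal of genes that were not tested, and the area of array 3, which holds the probes of 8 tested genes. Of the 13 genes that were not tested, Gabarapl1, Gabarapl2, Atg7, Pik3c3 and Ctsb failed only on array 3.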
